A study of Mus musculus with 16 samples.

Results

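The opioid system genes examined here were the 4 precursors of the endogenous opioid peptides (Penk, Pdyn, Pomc and Pnoc) and the 4 opioid receptors (Oprk1, Oprd1, Oprm1 and Oprl1). They were taken by symbol from the deposited gene table, where all 8 of 8 had a row, out of 56748 genes in all. Their expression was followed in RNA-seq libraries of the longitudinal muscle with myenteric plexus (LMMP), the outer layer of the colon that holds the myenteric neurons. Of the 8 genes, 7 passed the filter on low counts over all 16 libraries, and Oprm1 did not.

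The study used a mouse model of Hirschsprung disease (HSCR), in which the distal bowel lacks ganglia. HSCR mice were Ednrb -/- (Ednrb tm1Ywa) on a hybrid C57BL6/J-129Sv background, and were compared with Ednrb +/+ littermates (WT). Animals of both sexes were 2 to 4 weeks old. Groups of 4 libraries each were made from WT proximal colon, HSCR proximal colon (ganglionic, set apart by its gross distention), WT distal colon and HSCR distal colon (aganglionic). The tissue entry of the distal libraries names the proximal colon while their titles name the distal colon, and the titles were followed.

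Enkephalins, dynorphins, endorphins and nociceptin are cut from these precursors by proteases of the secretory granule. They act on receptors coupled to inhibitory G proteins, which lower cyclic AMP, close calcium channels and open potassium channels in the neuron. In the gut, enkephalin is made by myenteric motor neurons and interneurons, and opioid receptor activation reduces the release of acetylcholine and slows propulsion. The mu receptor (Oprm1) mediates the constipating action of morphine, the delta receptor (Oprd1) is the main target of enkephalin, the kappa receptor (Oprk1) that of dynorphin, and Oprl1 is the receptor of nociceptin.

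The precursors are shown first by the units that make them opioid genes, since the comparison of Penk with Pdyn below is one of transcripts that both encode enkephalin cores. A search of the coding sequence (GENCODE M39, GRCm39, the build mm39 of the files) for codons of the 5 residues of Met- or Leu-enkephalin found 6 Met-enkephalin units and 1 Leu-enkephalin unit in Penk. Pdyn held 3 Leu-enkephalin units, which open neoendorphin and dynorphins A and B. Pomc held 1 Met-enkephalin unit, at the start of beta-endorphin, and Pnoc had the start of nociceptin and no enkephalin unit. Below, the capitals mark the codons of the unit and the lower case the 2 codons on either side, read along the transcript.
Penk, unit 1 (Met-enkephalin), chr4:4134328-4134354, minus strand, exon 2: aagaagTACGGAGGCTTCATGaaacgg
Penk, unit 6 (Leu-enkephalin), chr4:4133935-4133961, minus strand, exon 2: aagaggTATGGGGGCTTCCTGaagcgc
Pdyn, unit 1 (Leu-enkephalin), chr2:129530152-129530178, minus strand, exon 4: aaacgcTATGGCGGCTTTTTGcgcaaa
Pdyn, unit 2 (Leu-enkephalin), chr2:129530044-129530070, minus strand, exon 4: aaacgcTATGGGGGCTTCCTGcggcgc
Pdyn, unit 3 (Leu-enkephalin), chr2:129529987-129530013, minus strand, exon 4: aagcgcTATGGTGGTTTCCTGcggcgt
Pomc, unit 1 (Met-enkephalin), chr12:4010367-4010393, plus strand, exon 3: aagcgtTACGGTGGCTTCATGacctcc
Pnoc, unit 1 (start of nociceptin), chr14:65642321-65642347, minus strand, exon 3: aaaaggTTTGGGGGCTTCACCggggcc

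Every unit was preceded by codons of a pair of basic residues, where prohormone convertases cut. A basic pair also followed 5 of the 7 units of Penk and all 3 of Pdyn, and the single units of Pomc and Pnoc had none after them. Unit 6 of Penk and unit 2 of Pdyn had the same bases throughout their capitals. Gene counts cannot say which peptide was cut from a transcript.

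The libraries held 21384372 to 45831881 counts, and the mitochondrial share ran from 4.32% to 49.8%. Smooth muscle genes were high in every group, with the lowest summed level of 8 markers, 4413 CPM (counts scaled to library size), in HSCR proximal library 2. That library also had the highest summed level of 14 epithelial genes, 16340 CPM. Ednrb itself held 64.5, 33.8, 67.1 and 53.0 CPM in WT proximal libraries 1 to 4, and 7.84, 11.9, 37.4 and 35.3 CPM in HSCR proximal libraries 1 to 4. In WT distal libraries it held 11.8, 15.7, 29.6 and 43.0 CPM, and in HSCR distal libraries 94.7, 5.43, 6.10 and 9.48 CPM, so that the library labelled HSCR distal 1 lay above all WT libraries. Hoxd13, a posterior Hox gene chosen after its values were seen, was at 0.861 to 23.9 CPM in WT proximal and 117 to 215 CPM in WT distal libraries. The library labelled HSCR proximal 1 held 125 CPM of it and the library labelled HSCR distal 1 held 0.615 CPM, each against its segment label, and HSCR distal 4 held 14.0 CPM. The part of Ednrb that the allele removes was not looked at here, so that gene counts do not check the genotype. Several results that rest on these libraries are given with and without them. Values with no such note, among them those of the gene lists and the correlations, include every library of their groups.

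Across all groups Penk was the most abundant opioid gene by FPKM, the scale that divides by gene length. In WT proximal colon its median was 206.8 FPKM (25.4 to 393.3 FPKM), above every other member in every library of the group. Behind it came Pdyn at 3.73 FPKM, Oprl1 at 3.4 FPKM, Oprk1 at 2.45 FPKM and Oprd1 at 1.41 FPKM, and neighbours in this order overlapped. Pnoc and Pomc had medians of 0.356 and 0.349 FPKM, and Oprm1 came last at 0.0548 FPKM.

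The order below Penk was not the same in each group. In HSCR proximal colon Pdyn stayed second, at 4.11 FPKM against 28.0 FPKM for Penk, and their ranges overlapped. There Oprk1 came seventh of 8, at 0.125 FPKM (0.0320 to 0.239 FPKM), below Oprl1 at 0.554 FPKM and Oprd1 at 0.522 FPKM, although the ranges of neighbours overlapped down to Oprk1. In WT distal colon the receptors Oprl1, Oprd1 and Oprk1 followed Penk at 1.88, 1.23 and 0.995 FPKM, and Pdyn was sixth at 0.904 FPKM. In HSCR distal colon Penk had a median of 17.2 FPKM, and no other member had one above 0.402 FPKM.

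**Figure D1:**
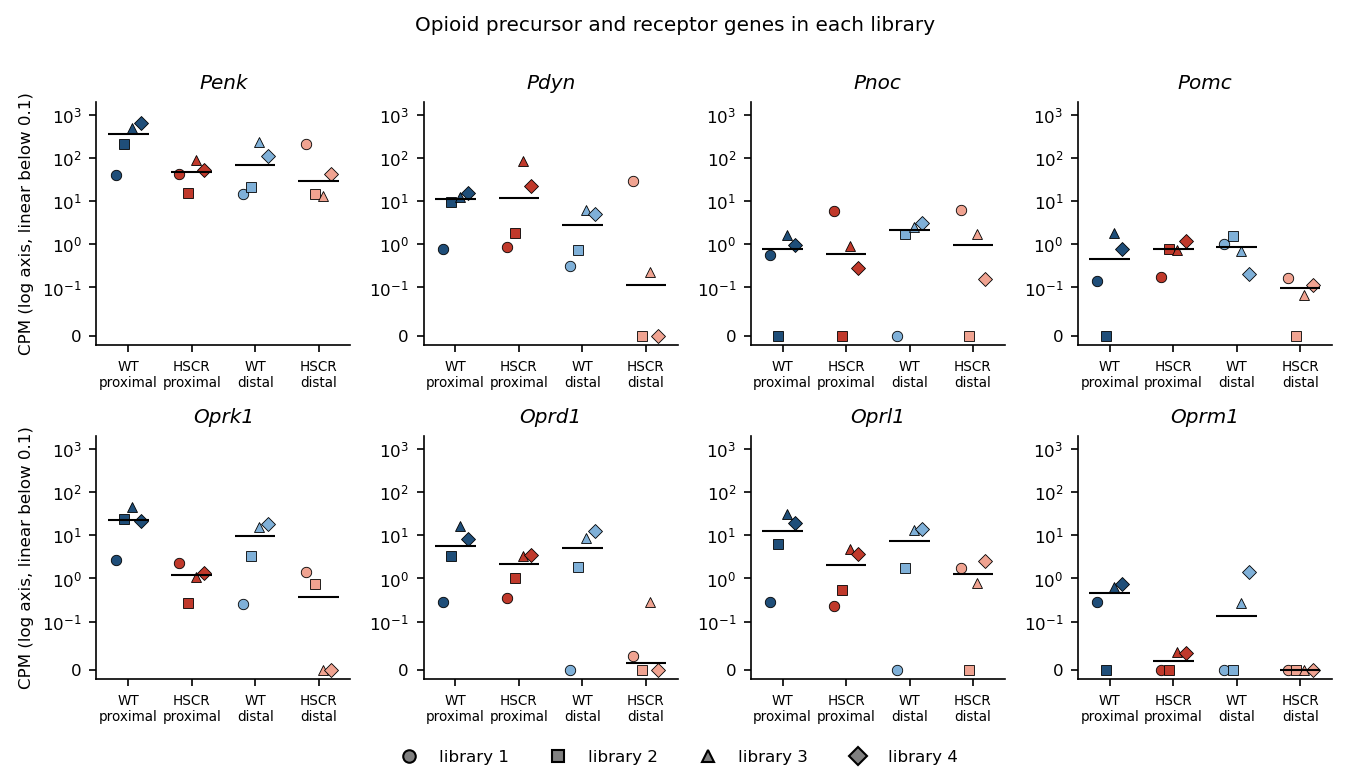
Each of the 8 opioid genes in CPM (log axis, linear below 0.1), with one marker shape for each library number and a line at the group median. Penk lies far above the other genes in most libraries, Oprk1 in the 4 HSCR proximal libraries lies below the 4 WT proximal libraries, and in HSCR distal colon most genes other than Penk sit near 0 outside library 1.

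In the proximal colon, the comparison asked whether ganglionic bowel of HSCR mice differed from the same segment of WT littermates. Oprk1 and Penk were the members with the strongest evidence of lower expression in HSCR, Oprl1 and Oprd1 had lower estimates with wide errors, and the estimates of Pdyn and Pnoc were higher. By edgeR's quasi-likelihood test 0 of the 7 members tested passed an adjusted p of 0.05, as did 0% of all 16664 genes tested. At an unadjusted p under 0.05 there were 2 members, Penk and Oprk1, both lower in HSCR, beside 6.62% of all genes in either direction and 4.13% lower in HSCR. At an adjusted p of 0.05 DESeq2 called Penk and Oprk1 (1.14% of all genes), edgeR's likelihood ratio test called Oprk1 (0.414%) and limma-voom called 0 members (0.024%). A fit with 4 factors of unwanted variation (RUVr) called Penk, Oprk1 and Oprl1, in a fit that called 20.8% of all genes.

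Oprk1, the kappa receptor (ENSMUSG00000025905, chr1:5658689-5676354, plus strand), held 2.73, 24.1, 44.3 and 21 CPM in WT proximal libraries 1 to 4. In HSCR proximal libraries it held 2.27, 0.277, 1.06 and 1.31 CPM, from 91, 8, 56 and 37 reads. No HSCR library reached the lowest of the 4 WT libraries, with WT library 1 and HSCR library 1 the closest pair. Every HSCR library below every WT library was also true of 2.83% of all genes tested. WT averaged 23.0 ± 17.0 CPM, and the HSCR average was 1.23 ± 0.823 CPM (SD, n = 4 each). Its fitted log2 fold change was -4.23 (SE 0.89, unadjusted p = 0.00104, adjusted p = 0.525), and the adjusted p was 6.0e-05 by DESeq2 and 0.0035 by the likelihood ratio test. On the mean log2 CPM the difference was -4.0 (two-sided exact permutation test, p = 0.0286, the smallest that 4 against 4 allows, 32 such tests made). Scaling by total counts, without TMM factors, let the groups overlap (exact permutation test, p = 0.0571). Without the library labelled HSCR proximal 1 the fitted log2 fold change was -4.68, and without HSCR proximal 2, the library rich in epithelium, it was -3.90.

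Penk, the proenkephalin gene (ENSMUSG00000045573, chr4:4133531-4138819, minus strand), held 40.1, 204, 502 and 648 CPM in WT proximal libraries. HSCR proximal libraries held 41.2, 15.7, 90.5 and 52.4 CPM. WT library 1 lay within the HSCR range, and the other 3 WT libraries lay above all HSCR libraries. WT averaged 349 ± 277 CPM, and the HSCR average was 50.0 ± 31.1 CPM (SD, n = 4 each). The fitted log2 fold change was -2.82 (SE 0.82, unadjusted p = 0.00728, adjusted p = 0.691), with an adjusted p of 0.0193 by DESeq2 and 0.0879 by the likelihood ratio test. By library, the mean log2 difference was -2.44 (exact permutation test, p = 0.114), and leaving out WT proximal 1 took it to -3.27. Penk overlaps A830012C17Rik on the other strand, which held 197 reads against 76731 for Penk, and the use of strand in the counting is not stated.

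Pdyn, the prodynorphin gene (ENSMUSG00000027400, chr2:129528485-129541764, minus strand), went the other way in some libraries. It held 0.789, 9.57, 12.7 and 15.3 CPM in WT proximal and 0.874, 1.80, 85.8 and 22.0 CPM in HSCR proximal libraries. HSCR libraries 3 and 4 lay above all WT libraries, and HSCR libraries 1 and 2 lay between WT library 1 and the rest. Its log2 fold change of 1.49 had a standard error of 1.30 (adjusted p = 0.825) and turned to -0.18 without HSCR proximal 3.

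The nociceptin receptor gene Oprl1 (ENSMUSG00000027584, chr2:181356809-181362778, plus strand) held 0.287, 6.24, 30.9 and 19.4 CPM in WT proximal libraries and 0.225, 0.553, 4.88 and 3.6 CPM in HSCR proximal libraries. Oprd1, the delta receptor (ENSMUSG00000050511, chr4:131838037-131871797, minus strand), held 0.287, 3.38, 16.8 and 8.08 CPM in WT and 0.350, 1.04, 3.29 and 3.46 CPM in HSCR. WT library 1 lay within the HSCR range for Oprl1 and below all HSCR libraries for Oprd1, and WT libraries 3 and 4 lay above all HSCR libraries for both. The log2 fold changes were -2.63 (SE 1.28, adjusted p = 0.752) for Oprl1 and -1.81 (SE 1.08, adjusted p = 0.773) for Oprd1.

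The remaining members had few reads. Pnoc, the nociceptin precursor (ENSMUSG00000045731, chr14:65638122-65662921, minus strand), held 0 to 1.61 CPM in WT and 0 to 6.02 CPM in HSCR proximal libraries, with a log2 fold change of 1.17 (SE 1.64) that became -0.96 without HSCR proximal 1. Pomc, the precursor of beta-endorphin and corticotropin (ENSMUSG00000020660, chr12:4004951-4010642, plus strand), held 0 to 1.79 CPM in WT and 0.175 to 1.20 CPM in HSCR, its fitted change being 0.09 on the log2 scale (SE 1.26). Oprm1, the mu receptor (ENSMUSG00000000766, chr10:6708506-6988198, plus strand), gave 117 reads over all 16 libraries and was not tested here. Its counts were 4, 0, 25 and 17 in WT proximal libraries and 0, 0, 2 and 1 in HSCR proximal libraries. Oprm1 also overlaps Ipcef1, with 155 reads, on the other strand.

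Replicates 1 and 2 share 1 style of library name, and replicates 3 and 4 have names of 2 other styles, which in the proximal colon are mixed in HSCR and not in WT, so that the second pair is no batch by name. Proximal differences were read within each pair of replicates. Oprk1 was lower in HSCR by -3.32 log2 units within replicates 1 and 2 and by -4.68 within replicates 3 and 4. The difference of Penk was -1.83 and -3.05, that of Oprl1 -1.90 and -2.54, and that of Oprd1 -0.71 and -1.78. These 4 genes kept their sign in both pairs, as did Oprm1 at its few reads (-2.19 and -3.755). Pdyn gave -1.13 in the first and 1.64 in the second, and Pnoc (1.68 and -1.24) and Pomc (3.03 and -0.32) also changed sign. The share of all genes that keep their sign was not counted. With 2 libraries a side there is no test within a pair.

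**Figure D2:**
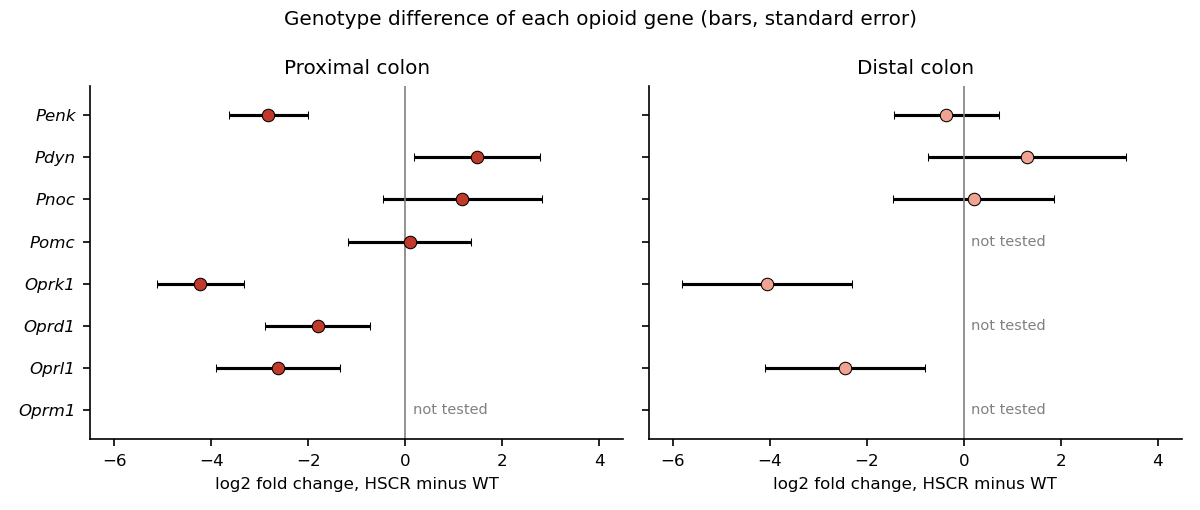
Fitted log2 fold changes, HSCR minus WT, for each opioid gene in the proximal (left) and distal (right) colon, with bars of 1 standard error. Oprk1 is near -4 in both segments, at -4.23 and -4.06, and Penk is at -2.82 on the left and -0.36 on the right. Genes that failed the filter on low counts are marked as not tested.

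In the distal colon, where the HSCR bowel is aganglionic, Oprk1 had the lowest estimate of the members that passed the filter on low counts. Of the 5 members tested, 0 passed an adjusted p of 0.05 by edgeR's quasi-likelihood test, as did 0% of the 17059 genes tested. Oprk1 was the only member under an unadjusted p of 0.05, beside 2.64% of all genes in either direction and 1.76% lower in HSCR. Oprk1 was no longer under 0.05 with a replicate block or with a term for replicates 1 and 2 against 3 and 4. The same held on leaving out any 1 of WT distal 2 to 4 or HSCR distal 2 to 4. With all 16 libraries in 1 fit Pomc and Oprd1 joined Oprk1, beside 708 of 18619 genes, 430 of them lower in HSCR. Pomc and Oprd1 had failed the filter on low counts in the distal comparison, and passed it only over all 16 libraries. At an adjusted p of 0.05 DESeq2 (0.129% of all genes), the likelihood ratio test (0.041%) and limma-voom (0%) called 0 members, and RUVr called Oprk1 in a fit that called 9.05% of all genes.

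Oprk1 held 0.258, 3.34, 15.7 and 18.3 CPM in WT distal libraries and 1.40, 0.729, 0 and 0 CPM in HSCR distal libraries. WT library 1 lay below HSCR libraries 1 and 2, and the other 3 WT libraries lay above all HSCR libraries. Its log2 fold change was -4.06 (SE 1.76, unadjusted p = 0.0460, adjusted p = 1.00). Without the library labelled HSCR distal 1 it was -5.24. Within replicates 1 and 2 the mean log2 difference was 0.10, and within replicates 3 and 4, where both HSCR libraries had no Oprk1 read, it was -10.2.

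Penk differed less in this segment. WT distal libraries held 14.3, 21.5, 227 and 113 CPM and HSCR distal libraries 211, 14.9, 13.0 and 43.4 CPM. The groups overlapped, with the library labelled HSCR distal 1 near the highest WT library. Its log2 fold change of -0.36 (SE 1.09, adjusted p = 1.00) was -1.97 without that library.

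Pdyn in HSCR distal colon came almost wholly from 1 library. Libraries labelled HSCR distal 1 to 4 held 28.5, 0, 0.226 and 0 CPM, and WT distal libraries 0.322, 0.730, 6.14 and 4.99 CPM. The fitted log2 fold change was 1.31 (SE 2.04), while the mean log2 CPM differed by -3.10, and without HSCR distal 1 the fitted value was -5.33 (unadjusted p = 0.0197, adjusted p = 0.813). The other 3 HSCR libraries were lower than any WT distal library, as was true of 3.28% of all genes.

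The delta receptor was close to absent from HSCR distal libraries. Oprd1 held 0, 1.85, 8.51 and 12.4 CPM in WT distal and 0.0279, 0, 0.282 and 0 CPM in HSCR distal libraries, from 1, 0, 10 and 0 reads. It fell short of the filter on low counts in this comparison, and with no filter its log2 fold change was -6.18 (unadjusted p = 0.00538, adjusted p = 0.658). Oprl1 held 0, 1.74, 13.1 and 13.7 CPM in WT distal and 1.79, 0, 0.791 and 2.49 CPM in HSCR distal libraries (log2 fold change -2.45, SE 1.66).

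Pnoc held 0 to 3.06 CPM in WT and 0 to 6.31 CPM in HSCR distal libraries, with a log2 fold change of 0.21 (SE 1.66). Pomc held 1.03, 1.52, 0.703 and 0.201 CPM in WT distal and 0.168, 0, 0.0847 and 0.114 CPM in HSCR distal libraries, so that no HSCR library reached the lowest WT value (exact permutation test, p = 0.0286, the smallest possible), as was true of 1.15% of all genes tested. Pomc itself failed the filter on low counts in this comparison and is not among those genes. Its HSCR values come from 0 to 6 reads a library, and the lowest WT value, in WT distal 4, from 8 reads. Oprm1 had 0, 0, 13 and 55 reads in WT distal libraries and 0 reads in all 4 HSCR distal libraries, where a count of 0 allows up to 3 counts, or 0.0685 to 0.109 CPM. Such limits cover counting error only.

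Whether the genotype difference itself differed between segments was tested in 1 fit of all 16 libraries. Of the 7 members, 0 passed an adjusted p of 0.05 (0% of the 18619 genes tested) and 0 an unadjusted p of 0.05 (1.44% of all genes). The distal difference minus the proximal difference was 2.47 for Penk (SE 1.43, unadjusted p = 0.105), 0.15 for Oprk1 (SE 1.89), -0.18 for Pdyn (SE 2.52) and -4.32 for Oprd1 (SE 2.12, unadjusted p = 0.0586). Several of these values rest on the doubted libraries. Without HSCR distal 1 the difference was 0.82 for Penk and -6.81 for Pdyn (unadjusted p = 0.00904), and without HSCR proximal 1 and HSCR distal 1 together it was 0.74 for Penk, -7.21 for Pdyn (unadjusted p = 0.0043, adjusted p = 1.00), -0.58 for Oprk1 and -4.46 for Oprd1. At an adjusted p of 0.05 DESeq2 (0.0322% of all genes), the likelihood ratio test (0.0161%) and limma-voom (0%) called 0 members, and RUVr called Penk (1.68%).

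Along the colon of WT mice, distal minus proximal, the log2 fold change was -1.91 for Penk (SE 0.97), -1.68 for Pdyn (SE 1.02), -1.32 for Oprk1 (SE 1.05), -1.02 for Oprl1 (SE 1.44) and -0.35 for Oprd1 (SE 1.39). Pnoc and Pomc had higher distal estimates, at 1.19 (SE 1.51) and 0.40 (SE 1.32). By edgeR's quasi-likelihood test 0 of 7 members passed an adjusted p of 0.05, beside 0.0181% of the 16566 genes tested, and 0 an unadjusted p of 0.05, beside 5.23% of all genes. DESeq2 (0.296% of all genes), the likelihood ratio test (0.193%) and limma-voom (0.0241%) called 0 members at an adjusted p of 0.05, and RUVr called Penk, Pdyn, Oprk1 and Oprl1 in a fit that called 19.2% of all genes.

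Along the colon of HSCR mice Oprd1 had the lowest estimate of the 6 members tested. It fell by 4.75 on the log2 scale from proximal to distal (SE 1.45, unadjusted p = 0.0098, adjusted p = 1.00). All 4 distal libraries lay below all 4 proximal libraries (exact permutation test, p = 0.0286, the smallest possible), as was true of 0.562% of all genes tested. Its reads were 14, 30, 174 and 98 in proximal and 1, 0, 10 and 0 in distal libraries. Oprd1 thus passed the filter on low counts through its proximal libraries, so that neither the estimate nor the separation is independent of that filter. The closest pair was HSCR proximal 1, at 0.350 CPM, and HSCR distal 3, at 0.282 CPM. Over the 6 members tested, 0 passed an adjusted p of 0.05 (0% of 17086 genes) and only Oprd1 an unadjusted p of 0.05 (1.49% of all genes). DESeq2 (0.0293% of all genes), the likelihood ratio test and limma-voom (0% each) called 0 members at an adjusted p of 0.05, and RUVr called Pdyn, Oprk1 and Oprd1 (2.1%). Without the libraries labelled HSCR proximal 1 and HSCR distal 1 the difference of the mean log2 CPM of Oprd1 was -5.86, and 3 against 3 libraries allow no p below 0.1. Penk differed by 0.52 (SE 0.92) between the segments of HSCR mice, and by -1.17 without the 2 doubted libraries.

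Markers of neurons moved with some of these genes. Over the 16 libraries, Pearson r with the mean log2 CPM of 15 neuronal genes was 0.868 for Oprk1, 0.842 for Pdyn and 0.830 for Penk. It was 0.777 for Oprd1, 0.710 for Oprl1, 0.372 for Pnoc and 0.293 for Pomc. In the proximal colon the fitted changes of Pdyn, Pnoc and Pomc were above 0, unlike those of the neuronal genes. Of 15 neuronal genes, all 15 had a lower estimate in HSCR proximal colon, 6 at an unadjusted p under 0.05 and 0 at an adjusted p under 0.05, with a median log2 fold change of -2.10 against 0.04 over all genes. Their summed level ran from 727 to 4007 CPM in WT proximal, 98.8 to 1256 CPM in HSCR proximal, 146 to 2346 CPM in WT distal and 33.0 to 1254 CPM in HSCR distal libraries. HSCR proximal libraries 1 and 2, at 98.8 and 131 CPM, lay below every WT library. The library labelled HSCR distal 1 held 1254 CPM, near HSCR proximal 3 and 4 at 1256 and 1150 CPM. In these HSCR libraries the neuronal level thus did not follow the segment labels. Elavl3 was at 0 in at least 1 library of HSCR proximal and of WT distal colon, and Syt1 and Snhg11 in at least 1 HSCR distal library. Of the 8 glial genes, 7 had a lower estimate in HSCR proximal colon, 5 of them at an unadjusted p under 0.05, and their summed level was 351 to 802 CPM in WT and 78.0 to 369 CPM in HSCR. Distally, 13 of the 15 neuronal genes had a lower estimate, 1 at an unadjusted p under 0.05, with a median of -1.73. In bulk tissue, fewer neurons and less RNA per neuron cannot be told apart.

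Epithelial genes moved the opposite way, with all 14 estimates higher in HSCR proximal colon, 2 of them at an unadjusted p under 0.05 (6.62% of all genes in either direction). Their summed level was 22.7 to 3651 CPM in WT proximal, where 8 of the 14 were at 0 in at least 1 library, and 208 to 16340 CPM in HSCR proximal libraries. For Epcam the WT proximal mean was 37.2 ± 64.2 CPM against 422 ± 654 CPM for HSCR, and for Krt8 it was 129 ± 229 against 1138 ± 1686 CPM (SD, n = 4 each). WT proximal library 1, the lowest WT proximal library for every member above except Pnoc, Pomc and Oprm1, also had the highest epithelial level of its group and a mitochondrial share of 49.8%. The part of epithelium or RNA quality in these results was not tested.

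The level of each gene was therefore also set against the neuronal list of the same library, as log2 CPM of the gene minus the mean log2 CPM of the 15 neuronal genes. On this scale a gene whose CPM is the same in both groups comes out higher in HSCR. Penk in the proximal colon did not differ beyond the spread between libraries, Pdyn was higher relative to the list in HSCR, and Oprk1 depended on 1 library. Penk stood at 0.44, 1.36, 1.36 and 2.06 in WT proximal and at 3.45, 1.95, 0.54 and 0.02 in HSCR proximal libraries, and the groups overlapped. The difference was 0.18 (exact permutation test, p = 0.8), and -0.47 without the library labelled HSCR proximal 1.

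Pdyn stood at -5.20, -3.06, -3.94 and -3.34 in WT proximal and at -2.09, -1.17, 0.46 and -1.23 in HSCR proximal libraries. Every HSCR library lay above every WT library, as was true of 7.58% of all genes on this scale. The neuronal list itself was lower in HSCR by 2.63 log2 units, so that most of the difference lies in the list, and the mean log2 CPM of Pdyn alone differed by 0.25. The difference was 2.88 (exact permutation test, p = 0.0286, the smallest possible), with 3.05 against Elavl4 alone and 2.80 against Uchl1 alone, the neuronal RNA-binding protein and ubiquitin hydrolase genes. Leaving out each library in turn gave 2.39 to 3.24, with p = 0.0571 (exact permutation test) without WT proximal 1.

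Oprk1 stood at -3.43, -1.73, -2.14 and -2.89 in WT proximal and at -0.72, -3.81, -5.86 and -5.29 in HSCR proximal libraries. The library labelled HSCR proximal 1 was the highest of the 8 and the other 3 HSCR libraries were the lowest. Over all 8 the difference was -1.37 (exact permutation test, p = 0.314), and without that library it was -2.44 (p = 0.0286 in the exact permutation test, the smallest that 4 against 3 allows), with every remaining HSCR library below every WT library, as was true of 0.21% of all genes. Oprd1 and Oprl1 differed by 1.38 and 0.40 (exact permutation tests, p = 0.143 and p = 0.886). Pomc was higher by 3.98 with no overlap, as was true of 7.58% of all genes on this scale. It had 7 to 39 reads in HSCR and 0 to 72 in WT libraries, and WT proximal 2, with 0 reads, stood at -12.4. The neuronal list itself was lower in HSCR by 2.63, and the fitted change of Pomc alone was 0.09. Pnoc was higher by 2.84 with overlap.

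**Figure D3:**
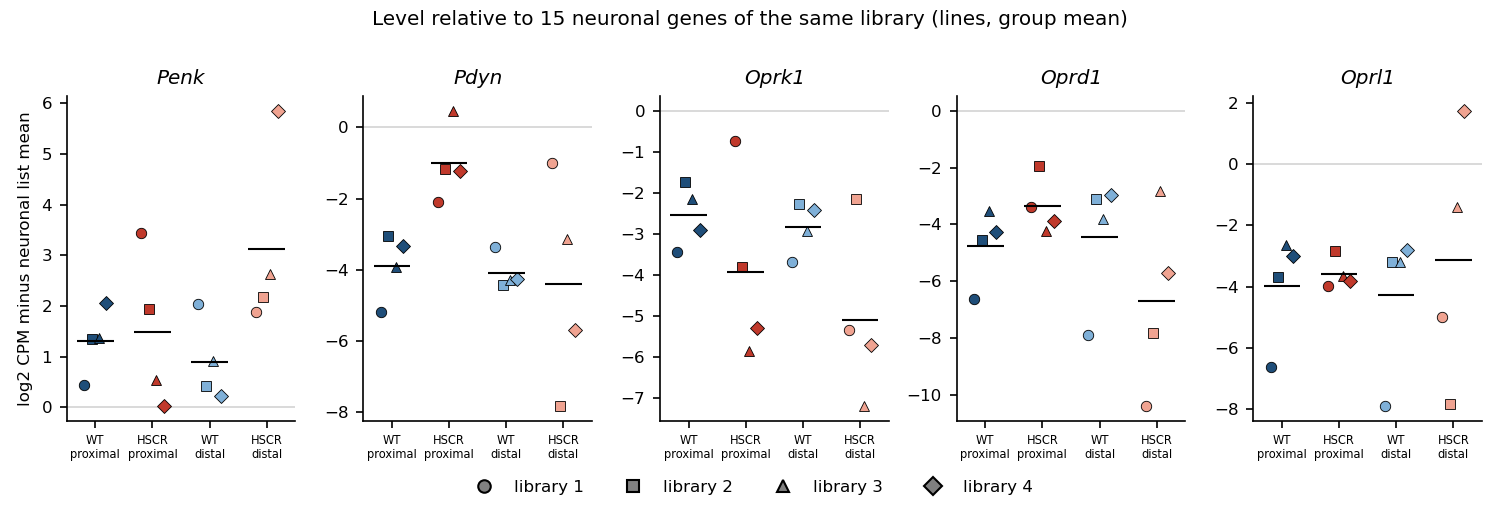
Level of 5 opioid genes relative to the neuronal list of the same library (log2 CPM minus the list's mean log2 CPM), with 1 marker shape for each library number and a line at the group mean. Pdyn is higher in all 4 HSCR proximal libraries than in any WT proximal library, while for Oprk1 the HSCR proximal libraries split into library 1 at -0.72 and libraries 2 to 4 at -3.81 to -5.86.

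In the distal colon the 3 HSCR libraries 2 to 4 had almost no Elavl4, at 0.438, 0.508 and 0.091 CPM against 2.45 to 110 CPM in WT distal libraries. Other neuronal genes were not all as low, with Uchl1 at 25.2, 7.79 and 1.96 CPM and a summed neuronal level of 151, 45.8 and 33.0 CPM, the first near WT distal library 1 (23.4 and 146 CPM). Penk was read there at 14.9, 13.0 and 43.4 CPM, from 409, 461 and 1899 reads, beside 14.3 CPM in WT distal library 1. The other members were low there, with Oprk1 at 0.729, 0 and 0 CPM, Pdyn at 0, 0.226 and 0 CPM, Oprd1 at 0, 0.282 and 0 CPM, and Oprl1 at 0, 0.791 and 2.49 CPM. Relative to the neuronal list Penk was higher in HSCR distal colon by 2.24 (exact permutation test, p = 0.0571), and by 2.65 without the library labelled HSCR distal 1. The list itself was lower in HSCR distal colon by 2.77 log2 units, so that this difference lies in the list. The highest ratio, 5.85, was that of HSCR distal 4, where the list averaged only -0.41 log2 CPM. Which cells carried the Penk of HSCR distal libraries 2 to 4 was not tested.

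Ratios between members within a library need no marker list and are given as a description. Penk exceeded Pdyn 49.9-, 21.3-, 39.4- and 42.4-fold in WT proximal libraries, and 42.4-, 29.0-, 36.9- and 22.5-fold in WT distal libraries. In HSCR proximal libraries the ratio was 46.4, 8.67, 1.05 and 2.38, and in the library labelled HSCR distal 1 it was 7.37. WT libraries of both segments thus kept to a range of 21.3 to 49.9, and the library labelled HSCR proximal 1 lay within it while the other 3 HSCR proximal libraries lay below it. The fitted proximal changes of Penk and Pdyn had opposite signs, at -2.82 and 1.49, so that a lower ratio follows from the choice of pair. In HSCR distal 2 to 4 the ratio was 1030, 54.2 and 2994, above the WT range. These libraries had 0, 8 and 0 reads of Pdyn, and with 0 reads the prior count sets the value.

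The receptor of dynorphin was also set against the precursor of its ligand. In the proximal colon these were the members with the lowest and the highest fitted change, so that a wide change of their ratio follows from the choice of pair. Oprk1 over Pdyn was 3.41, 2.51, 3.48 and 1.37 in WT proximal libraries. It was 2.57, 0.161, 0.0125 and 0.0600 in HSCR proximal libraries and 0.0494 in the library labelled HSCR distal 1. WT distal libraries had 0.809, 4.51, 2.55 and 3.66. HSCR distal libraries 2 to 4 had 51.3, 0.0603 and 1, each with 0 reads of Oprk1, of Pdyn or of both. Here too HSCR proximal 1 lay among the WT values, and HSCR proximal 2 to 4 lay below all 8 WT libraries. The value of HSCR proximal 2 rests on 8 reads of Oprk1. How many other pairs of genes behave like either of these ratios was not counted.

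**Figure D4:**
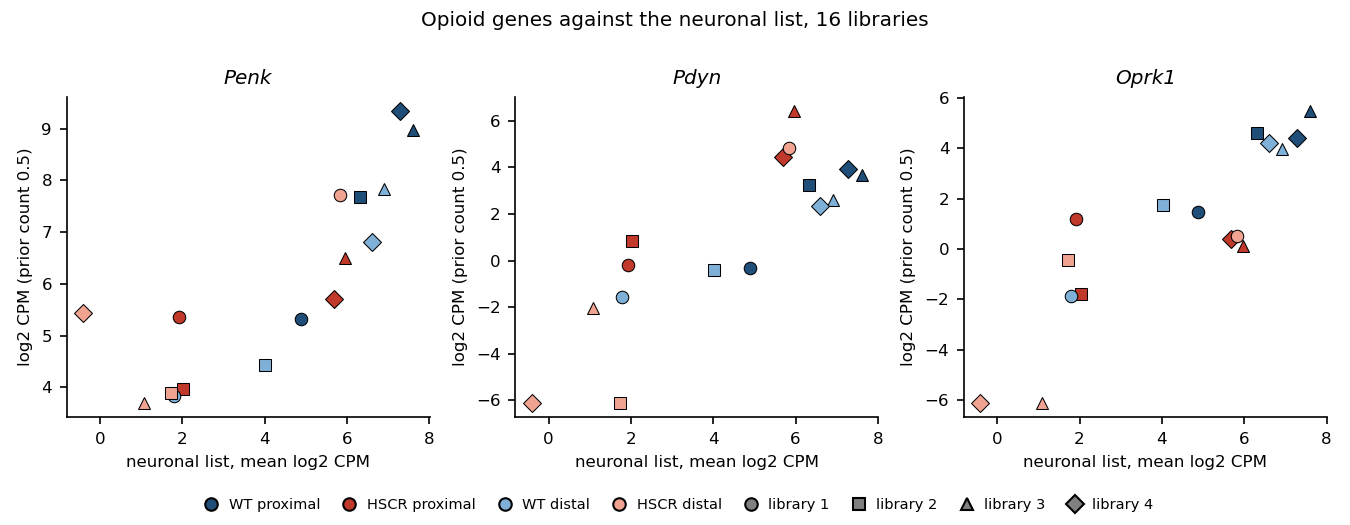
Penk, Pdyn and Oprk1 (log2 CPM, prior count 0.5) against the mean log2 CPM of the 15 neuronal genes in the 16 libraries, coloured by group with 1 marker shape for each library number. HSCR proximal libraries 3 and 4 have neuronal levels of 5.96 and 5.69, where Pdyn lies above and Oprk1 below the WT libraries of similar neuronal level.

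Across the 16 libraries, which share the spread in neuronal genes just described, the members were also described by the genes most like them (Pearson r of log2 CPM, 18612 genes compared). Pdyn was most like Vip (r = 0.960) and Gal (r = 0.941), which encode inhibitory motor neuron peptides, then Rprml, Chrnb4, a nicotinic receptor subunit, and Scgn. Oprl1 was most like the synaptotagmin genes Syt14 (r = 0.953) and Syt13, with Nfasc, Chrnb2 and Miga1. Oprk1 was most like 6330403K07Rik (r = 0.948), Asphd2, Lrrc73, D430019H16Rik and Kcnab2, a potassium channel subunit. Penk was most like ENSMUSG00000120039 (r = 0.945), Amigo2, Map9 and Tspyl4, and Oprd1 like Tmem132e (r = 0.906), Dbh, the enzyme that makes noradrenaline, Fibcd1, Omg and Bglap2.

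The values of r changed little once group means were removed, to 0.960 for Vip with Pdyn, 0.954 for Syt14 with Oprl1, 0.903 for 6330403K07Rik with Oprk1 and 0.870 for Tmem132e with Oprd1. Vip held 1655 and 859 CPM in HSCR proximal libraries 3 and 4, against 14.2 to 367 CPM in WT proximal libraries, the same libraries in which Pdyn was highest of the proximal colon. For Pnoc the nearest genes were C78197 (r = 0.922), Pcdhgb4, Slc25a43, Thada and Pcdhga2, and for Pomc C530005A16Rik (r = 0.894), Gm9214, A330069E16Rik and Plcb2, at the low counts given above.

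The genes around the opioid peptides were read from lists by role. For each list below, the share of all genes at an unadjusted p under 0.05 was 6.62% in the proximal and 2.64% in the distal genotype comparison. Genes under that p and lower in HSCR made up 4.13% and 1.76% of all genes. Of 12 genes of peptide processing in the proximal colon, 9 had lower and 3 higher estimates, with a median of -0.94. At an unadjusted p under 0.05 there were 2, both lower. These were Pcsk1n, the inhibitor proSAAS (-2.39, SE 0.90), and Scg3, a granule protein (-2.32, SE 0.96). Pcsk2, the convertase that frees enkephalin, was at -2.46 (SE 1.20, unadjusted p = 0.0709) in the proximal colon and at -3.92 (SE 1.65, unadjusted p = 0.0420) in the distal colon, where it was the 1 gene of 12 under 0.05. Its WT proximal libraries held 6.67 to 124 CPM and its HSCR proximal libraries 0.553 to 24.5 CPM.

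Of the 10 genes of peptide breakdown, 9 were tested in the proximal colon, 7 with higher and 2 with lower estimates and a median of 0.50. Dpp3, a dipeptidyl peptidase that degrades enkephalin, was the only one under an unadjusted p of 0.05, at 0.91 (SE 0.28, unadjusted p = 0.0101, adjusted p = 0.691). It held 32.6, 30.8, 52.4 and 41.2 CPM in WT and 63.2, 98.1, 83.7 and 53.4 CPM in HSCR proximal libraries, and every HSCR library lay above every WT library, as for 1.95% of all genes. Its distal log2 fold change was 0.0467, and distally 0 of the 10 genes had an unadjusted p under 0.05.

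Receptor signalling genes had 22 lower and 4 higher estimates among the 26 tested of 30 in the proximal colon, with a median of -0.54 and 4 lower at an unadjusted p under 0.05. Grk3, a kinase that desensitizes activated receptors, was at -2.03 (SE 0.73), Prkce, a protein kinase C, at -1.06 (SE 0.37), Gnb5, a G protein subunit that works with RGS proteins, at -0.82 (SE 0.24) and Arrb2, beta-arrestin 2, at -0.64 (SE 0.25). In the distal colon 7 of 27 were under 0.05, all lower, out of 23 lower and 4 higher estimates. Grk3 (-2.39), Arrb2 (-0.95) and Prkce (-1.03) were among them, with Kcnj3, a potassium channel that receptors open (-5.06, SE 1.97), Rgs9 (-1.96), Prkca (-0.80) and Gnai1, an inhibitory G protein subunit (-0.58).

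Among 7 other genes tied to opioid binding, 5 were tested, 4 with higher estimates in the proximal colon and a median of 0.31. Tlr4, the receptor of endotoxin, was at 1.29 (SE 0.42, unadjusted p = 0.0137, adjusted p = 0.722), with 2.27 to 4.23 CPM in WT and 5.42 to 10.3 CPM in HSCR proximal libraries. Distally, 0 of 5 were under 0.05, with a median of 0.39. No gene of these lists passed an adjusted p of 0.05 in either genotype comparison by edgeR's quasi-likelihood test.

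For context, 9 of 10 transmitter genes of myenteric motor neurons were tested in the proximal colon, and 8 had lower estimates, with a median of -2.99. At an unadjusted p under 0.05 there were 5, all lower. They were Tac1, the substance P precursor (-4.71, SE 1.19), the acetylcholine genes Chat (-4.06, SE 1.71), Slc18a3 (-3.93, SE 1.39) and Slc5a7 (-3.67, SE 1.18), and Calb2, calretinin (-2.99, SE 1.09). Vip was the 1 with a higher estimate, at 1.83 (SE 1.5). Distally, all 8 tested had lower estimates, with a median of -2.36, and Calb2 alone was under 0.05 (-5.62, SE 2.15).

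**Figure D5:**
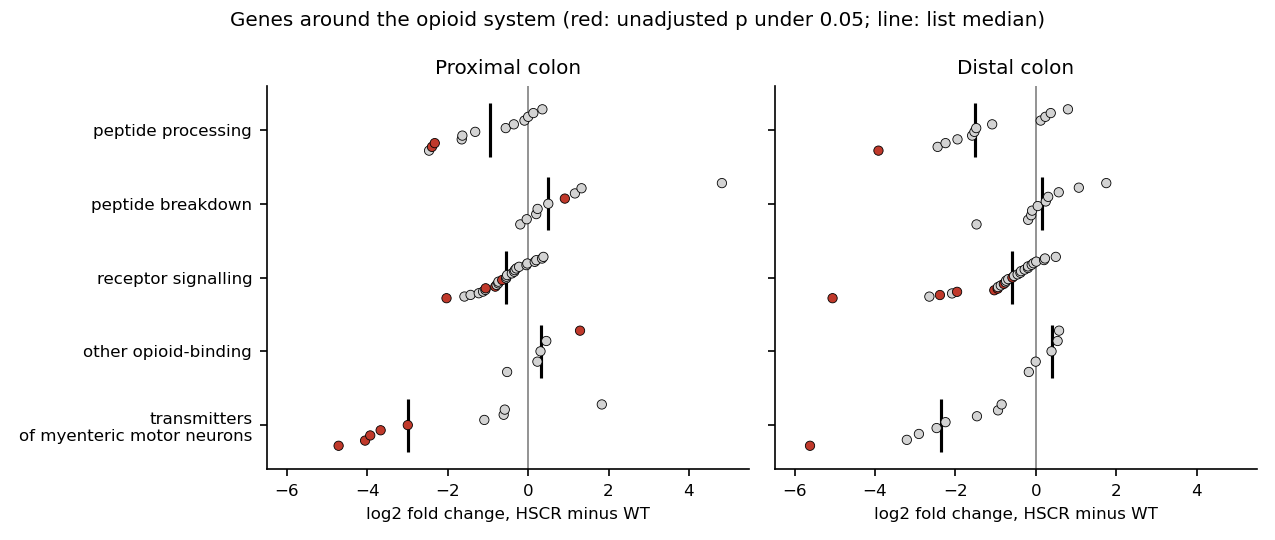
Log2 fold changes, HSCR minus WT, of the genes tested in 5 lists in the proximal (left) and distal (right) colon, with each point 1 gene, red for an unadjusted p under 0.05 and a line at the list median. Processing, signalling and transmitter genes lie mostly below 0, with medians of -0.94, -0.54 and -2.99 in the proximal colon, and breakdown genes lie mostly above 0, with a median of 0.50.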

How the data were processed

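RNA was extracted from LMMP, poly(A)-selected and sequenced. Per the labels' processing notes the authors used HISAT2 2.2.1, genome build mm39 and featureCounts 2.0.6, and they deposited raw counts per gene, the values tested here. The deposited FPKM values are those counts per kilobase, scaled once for each library by the authors. Columns with the authors' own fold changes and p-values were not used, nor was a second table that repeats 1 comparison.

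Here, counts were tested with edgeR 4.0.16 (filterByExpr, TMM, quasi-likelihood test, Benjamini-Hochberg over all genes), on the 8 libraries of a comparison or on all 16 for the difference between segments. The SE is the fold change over the root of F. CPM use TMM factors over 16 libraries, and log2 values a prior count of 0.5. Exact permutation tests compared mean log2 CPM. DESeq2 1.42.0, limma 3.58.1, RUVr and leaving out libraries were alternatives. For the genotype comparisons the edgeR and DESeq2 fits were tested on simulated data, where DESeq2 made more false calls than the quasi-likelihood test. The labels give no animal for a library, so that p-values measure the spread between libraries. Same-numbered libraries did not deviate together in every pair, so the numbers were not taken to pair them. No 2 libraries held identical counts.

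The 8 members and all lists were chosen with earlier results of these data known. Other genes named are the 5 most like each member (2 of them are not reported here), list genes under an unadjusted p of 0.05 in a genotype comparison, Ednrb, Elavl4, Uchl1, Epcam and Krt8, and Pcsk2, Vip, Gal and Hoxd13 beside their results. Sequences were read from the GENCODE M39 transcripts (GRCm39).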

Additional observations from a re-analysis of the deposited data

Results flagged for a closer look

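Of the 32 groups of 4 libraries formed by the 8 genes, 2 held a library whose gap to its nearest neighbour took up an unusually large part of the group's range, and chance alone flags about 1 in 20. Pdyn in WT proximal library 1 was at 0.789 CPM against 9.57 to 15.3 CPM in the other 3 WT proximal libraries. Pnoc in WT distal library 1 was at 0 CPM, where the prior count alone sets the log2 value, against 1.74 to 3.06 CPM in the other 3 WT distal libraries.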

How the results depend on the processing

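The edgeR quasi-likelihood test called 0 opioid genes in all 5 comparisons, also on leaving out any single library. The proximal genotype count was 2 by DESeq2 (1.14% of all genes), 1 by the likelihood ratio test (0.414%) and 3 by RUVr. RUVr called 1 in the distal colon, 4 between segments of WT mice, 3 between segments of HSCR mice and 1 for the difference between segments, where RUVr called 9.05%, 19.2%, 2.1% and 1.68% of all genes, against 20.8% in the proximal genotype comparison. With a replicate block the counts remained 0, although the numbers were not shown to pair libraries (correlations of same-numbered deviations of 0.0956 to 0.419 between WT segments and lower elsewhere in at least 1 pair). Between WT segments the replicate block brought Penk (-2.09), Pdyn (-1.89), Oprk1 (-1.90) and Oprl1 (-1.49) under an unadjusted p of 0.05. It also raised the number of all genes under that p from 867 to 1398 of 16566, 809 of them lower in the distal colon. Under that replicate block Oprk1 in the proximal colon was at -4.25 (adjusted p = 0.519), while Pdyn and Pnoc in the distal colon reversed to -4.69 and -2.03. The number of members whose proximal groups did not overlap was 1, fell to 0 with CPM over total counts, and was 1 to 3 when 1 library was left out (3 without WT proximal 1, 2 without WT proximal 2). Over all genes the share was 4.78%, 3.99% with CPM over total counts, and 12.9% and 8.32% without those libraries, since leaving out a library can only keep or raise such a count.

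Other reversals concerned genes with wide errors or few reads, and their cause was not tested. Limma-voom gave -0.57 for Pomc in the proximal colon, and -4.36 for Pdyn and -1.28 for Pnoc in the distal colon. RUVr gave -2.58 for Pdyn in the distal colon. A term for replicates 1 and 2 against 3 and 4 gave 0.0403 for Penk and -0.29 for Pdyn in the distal colon. Without HSCR proximal 1 and HSCR distal 1 together, Pnoc was at -0.96 proximally and -1.61 distally, Pdyn at -5.33 in the distal colon, and Penk at -0.47 relative to the neuronal list in the proximal colon. Against Elavl4 alone Pdyn was at 1.61 in the distal colon.

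Leaving out 1 library gave proximal log2 fold changes of -4.68 to -3.72 for Oprk1, -3.22 to -2.32 for Penk and -0.18 to 1.90 for Pdyn. It gave -0.96 to 1.78 for Pnoc, -2.22 to -0.98 for Oprd1 and -0.33 to 1.19 for Pomc. In the distal colon it gave -1.97 to 0.59 for Penk, -5.33 to 1.93 for Pdyn and -1.61 to 0.63 for Pnoc. The difference between segments ran from 0.82 to 3.38 for Penk. Relative to the neuronal list it gave -0.47 to 0.67 for Penk and -0.47 to 0.85 for Oprl1 in the proximal colon, and -1.46 to 0.81 for Pdyn and -0.46 to 2.73 for Oprl1 in the distal colon. Oprk1, Oprl1 and Oprd1 kept a negative fitted fold change in every alternative of the proximal colon. The difference between segments already uses all 16 libraries and has no other fit of that kind. Leaving out the doubted pair in the 2 exact tests was chosen after seeing the data.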
